A study of Mus musculus with 29 samples.

Results

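The clustered protocadherins are neural cell adhesion proteins encoded by neighbouring genes on mouse chromosome 18, and they were taken here as every protein-coding gene of the table whose symbol names a member of the Pcdha, Pcdhb or Pcdhg cluster. This rule found 57 genes among 31002 in the table, of which 21930 are protein-coding. There were 14 alpha, 22 beta and 21 gamma genes. Hippocampal RNA was measured by RNA-seq in 29 mice, from young animals of 2 months (7 WT and 8 homozygous hAβ-KI) and old animals of 22 months (8 WT and 6 homozygous hAβ-KI). The hAβ-KI mice carry a change of 3 amino acids that makes the Aβ sequence of the endogenous App gene human, together with loxP sites around exon 14, and no familial Alzheimer's disease mutation. The labels of these mice name no Cre. Males and females were in every group, 18 and 11 in all. The labels give the strain as C57BL/6NJ for hAβ-KI and C57BL/6N for WT mice, whereas the methods of the study name the former as a B6(SJL) strain and the latter as C57BL/6NTac. The hAβ-KI line was made in C57BL/6N embryonic stem cells. Descendants of the chimeras were bred with C57BL/6J females and later with C57BL/6NTac mice, so the genotypes can also differ in substrain background. The labels name no batch. The numbers that end the sample titles form a separate block in each group. If they follow the processing order, its effect cannot be told apart from age or genotype.

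Each neuron switches on its own mixture of clustered protocadherins, and the proteins bind to identical proteins on other membranes, which lets branches of a neuron recognize each other. In the alpha and gamma clusters, each gene has its own promoter and its own long variable first exon, which is spliced to constant exons used by all genes of the cluster, whereas each beta gene is a complete unit. The choice among these promoters depends on DNA methylation, on CTCF and on cohesin loops to distant enhancers. The C-type genes at the ends of the alpha and gamma clusters escape this choice and are expressed broadly among neurons.

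The annotation of GRCm38 (GENCODE M21) showed this structure. On chromosome 18, the alpha cluster lies between 36930184 and 37187661, the beta cluster between 37264938 and 37524479, and the gamma cluster between 37661793 and 37841873, all on the plus strand. All 14 alpha genes shared 3 constant exons, as did all 21 gamma genes, and no exon was shared among the beta genes. Reads of shared exons cannot be assigned to a gene directly and were divided by the RSEM estimate. Over 43-base stretches, the length of a read, a median of 62.0% of an alpha gene, 45.7% of a gamma gene and 6.27% of a beta gene also occurred in other genes. Within the first exon alone the medians were 18.02%, 14.9% and 6.27%. The first exons of Pcdhac1, Pcdhac2, Pcdhgc4 and Pcdhgc5 held no shared stretch, whereas those of Pcdha4 (99.9%), Pcdha11 (97.8%) and Pcdhga10 (the whole exon) were almost or fully shared with other genes, and their separate levels are uncertain. The label symbol Pcdhga8 stood on 2 gene IDs and Pcdha11 on 2 others. By gene ID and position, ENSMUSG00000023036 is called Pcdhgc4 and ENSMUSG00000007440 Pcdha10 here.

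The deposited values are TPM, which are corrected for transcript length and so allow levels of different genes to be compared. Sequencing depth cannot be read from them. Since the hippocampus was sequenced in bulk, a lower level can mean fewer cells of a type or less RNA per cell, and these cannot be told apart. Markers of mature neurons were present in all mice, with a summed level of the 8 markers between 3099.7 and 3593.4 TPM, and no marker gene of the neuronal list was at 0. The choroid plexus markers ranged from 109.9 to 18974.4 TPM among mice and spanned a similar range in every group.

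Gamma genes made up most of the protocadherin RNA. Over all mice, the gamma genes summed to 229 TPM, the beta genes to 50.0 TPM and the alpha genes to 30.3 TPM, so that the gamma cluster held 74.0% of the total. The 3 gamma C-type genes alone were 60.8% of the gamma sum. Pcdhgc4, which is needed for the survival of cortical interneurons, had the highest mean level with 58.5 TPM over all mice. Pcdhgc5, which appears late in postnatal brain and interacts with GABA-A receptors at synapses, followed with 52.8 TPM, and Pcdhgc3, which acts on dendrite branching through Axin1, with 28.01 TPM. The other gamma genes lay between 2.23 and 8.25 TPM.

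**Figure D1:**
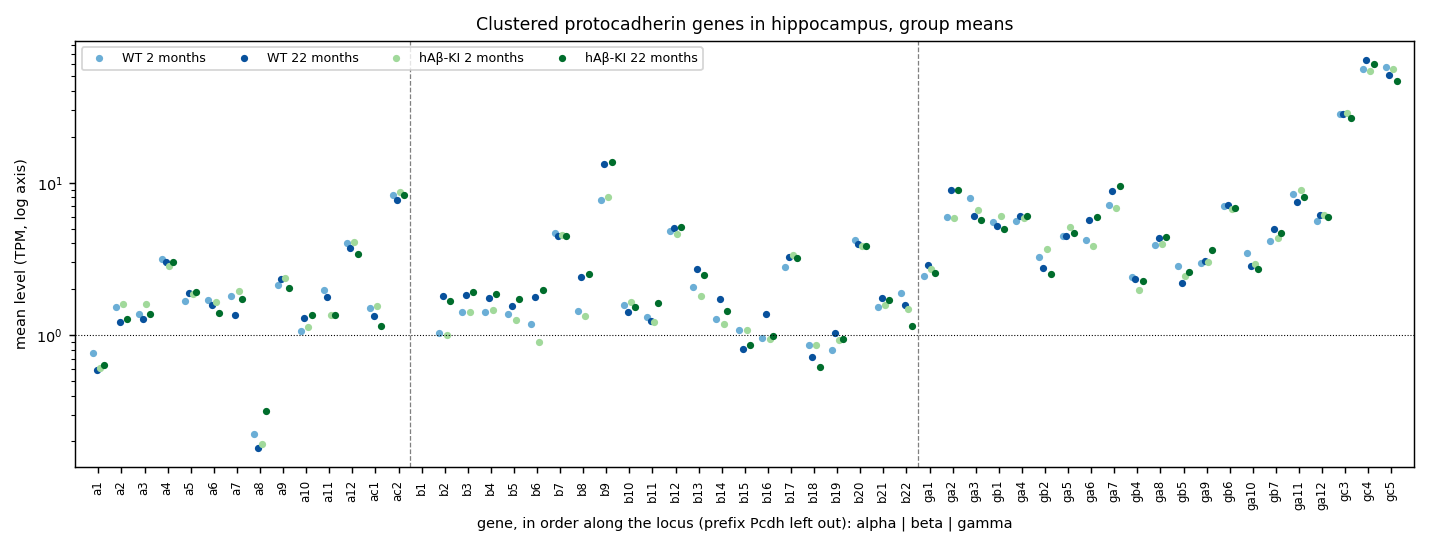
Mean level in TPM on a log axis for each clustered protocadherin gene, in order along the locus, with 1 point for each of the 4 groups. Dashed lines separate the alpha, beta and gamma clusters and the dotted line marks 1 TPM. Pcdhb1 is not drawn, with a mean of 0.0217 TPM. The 3 gamma C-type genes at the right stand above all other members, and Pcdhb9 is the highest beta gene.

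The alpha and beta clusters each had a few genes above a low plateau. Pcdhac2, a C-type gene that spaces out serotonergic axons, had 8.23 TPM, Pcdha12 had 3.81 TPM and Pcdha4 had 3.0 TPM. These 3 genes held 49.3% to 50.3% of the alpha sum in the 4 groups, in the same order. The other alpha C-type gene, Pcdhac1, had only 1.40 TPM. In the beta cluster, Pcdhb9 had 10.6 TPM, Pcdhb12 4.87 TPM and Pcdhb7 4.52 TPM, again in the same order in each group. Most of the sequence of Pcdhb12 (64.8%) was shared with other genes. Of the 57 genes, 55 reached 1 TPM in at least 2 mice and were tested. Pcdha8, with a mean of 0.222 TPM, and Pcdhb1, listed at 0 in 19 mice, did not.

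The spread between mice of a group was widest in the alpha cluster. The median coefficient of variation of the tested members was 23.2% to 26.1% in the 4 groups for alpha genes, 15.8% to 19.7% for beta genes and 14.6% to 17.9% for gamma genes. Pcdhgc5 varied least among the C-type genes, with an SD of 2.59 TPM around 51.3 TPM in old WT mice (n = 8).

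Age was the comparison in which members changed. The test was limma on log2(TPM + 1) across 15554 genes, with a call at a Benjamini-Hochberg FDR under 0.1 and p under 0.05, and fold changes on this scale understate those of low genes. In WT mice 10 of 55 members were called between 2 and 22 months (18.2%), against 5% of all genes tested. Of these, 8 were higher at 22 months, where 1.93% of all genes were called higher, and 2 were lower, where 3.07% were called lower. In hAβ-KI mice 9 of 55 members were called (16.4%), against 9.18% of all genes. Of these, 7 were higher, with 3.86% of all genes called higher, and 2 were lower, with 5.32% called lower. Both genotypes had 7 calls in common, namely Pcdhb2, Pcdhb8, Pcdhb9, Pcdhga2, Pcdhga6 and Pcdhga7, which rose in both, and Pcdhgc5, which fell in both. They are 70.0% of the WT calls and 77.8% of the hAβ-KI calls. The overlap of calls over all genes was not computed, so whether these shares are particular to the members is not known. The 2 age comparisons use different mice and share only the estimate of the spread. Across all tested members, log2 fold changes with age had a median of 0.02 in WT and of 0.01 in hAβ-KI mice, beside medians of -0.03 and -0.00 over all genes.

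**Figure D2:**
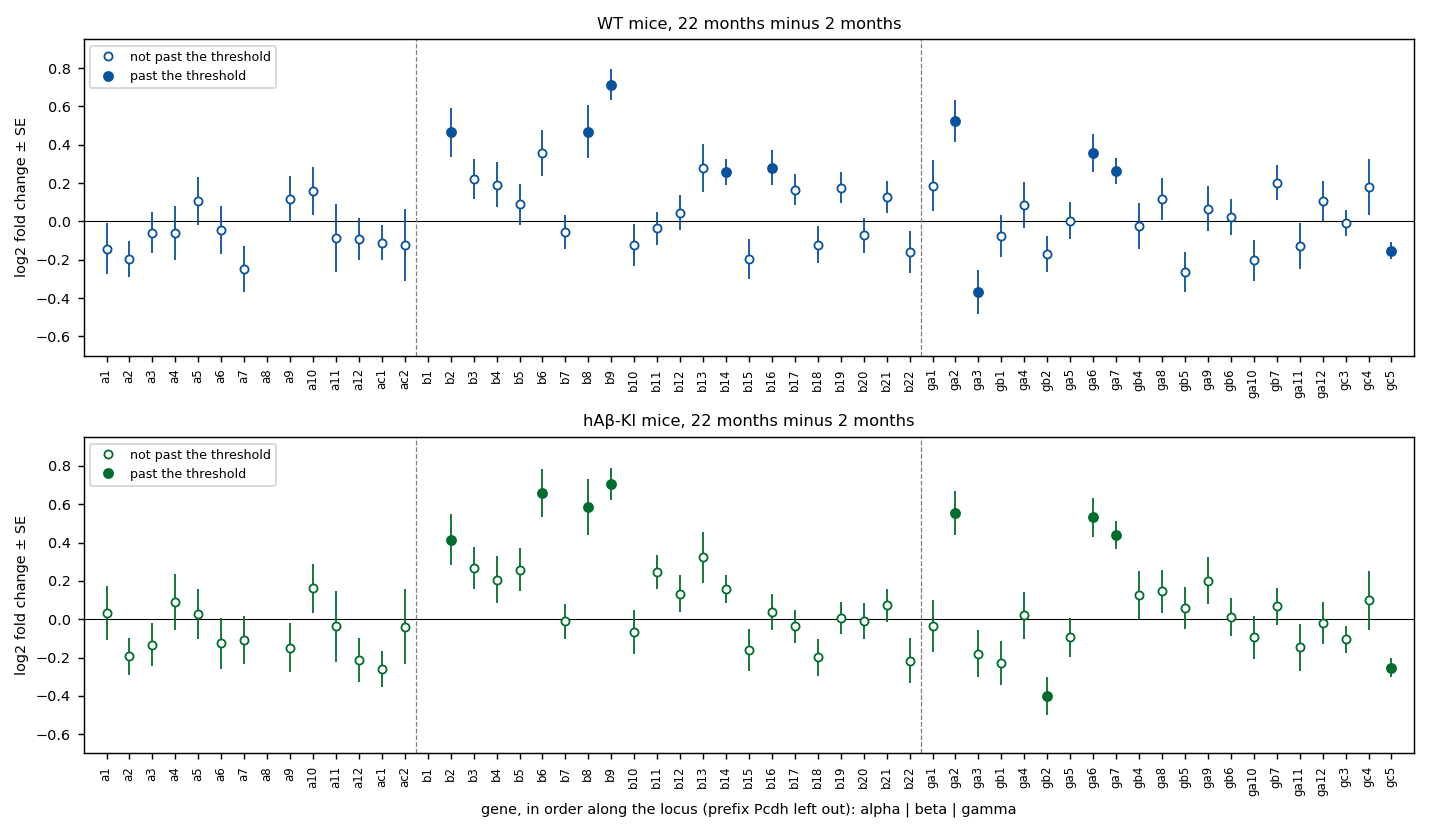
Log2 fold change of TPM + 1 from 2 to 22 months with its standard error for each tested member, in order along the locus, in WT mice (top) and hAβ-KI mice (bottom). Filled points passed the limma threshold (10 for WT, 9 for hAβ-KI) and open points did not. Filled points lie in the beta and gamma clusters, with Pcdhb9 highest in both panels, and none lies in the alpha cluster.

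On the log2(TPM + 1) scale, Pcdhb9 showed the largest rise among the tested members in both genotypes. In WT mice its lowest, median and highest levels were 6.82, 7.51 and 9.07 TPM at 2 months and 11.3, 13.1 and 16.2 TPM at 22 months. In hAβ-KI mice they were 6.83, 8.025 and 9.40 TPM at 2 months and 11.5, 13.4 and 16.1 TPM at 22 months. Every old mouse was above every young mouse in both genotypes. No other member separated the ages of WT mice without overlap, which 0.887% of all genes did. The mean rose 1.73-fold in WT (log2 fold change 0.71 ± 0.08 SE, adjusted p = 4.35e-06) and 1.71-fold in hAβ-KI mice (0.71 ± 0.08 SE, adjusted p = 6.82e-06). Both calls held under every alternative and with each mouse left out in turn. Of its sequence 11.1% was shared with other genes.

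Of the genes next to Pcdhb9 on the chromosome, Pcdhb8 upstream was called in both genotypes. Pcdhb10 downstream had log2 fold changes of -0.12 ± 0.11 SE in WT (adjusted p = 0.636) and -0.07 ± 0.11 SE in hAβ-KI mice (adjusted p = 0.803). Pcdhb8 had 0.93, 1.40 and 1.99 TPM (lowest, median and highest) in young WT and 1.54, 2.335 and 3.88 TPM in old WT mice. In hAβ-KI mice the values were 0.69, 1.315 and 1.87 TPM at 2 months and 1.51, 2.605 and 3.66 TPM at 22 months. The ranges overlapped, but the medians were higher at 22 months in both genotypes. The log2 fold change was 0.47 ± 0.14 SE in WT (adjusted p = 0.0686) and 0.59 ± 0.15 SE in hAβ-KI mice (adjusted p = 0.0163). The WT call was lost without any of 6 WT mice, with an adjusted p of up to 0.138, and under 2 of 11 alternatives (no filter on low values and the immature neuron score).

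Pcdhb2, a beta gene with a mean of 1.37 TPM over all mice, was called in both genotypes. Its lowest, median and highest levels were 0.69, 0.92 and 1.70 TPM in young WT mice and 1.09, 1.81 and 2.65 TPM in old WT mice. In hAβ-KI mice they were 0.48, 0.99 and 1.56 TPM at 2 months and 1.10, 1.64 and 2.26 TPM at 22 months. Young and old mice overlapped in both genotypes. The log2 fold change was 0.47 ± 0.13 SE in WT (adjusted p = 0.0447) and 0.42 ± 0.13 SE in hAβ-KI mice (adjusted p = 0.0637). The WT call was lost with the immature neuron score as a covariate. The hAβ-KI call was lost without any of 4 hAβ-KI mice (adjusted p up to 0.164), after quantile normalization and with only the groups compared.

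Pcdhb6 was called only in hAβ-KI mice. There its levels were 0.55, 0.825 and 1.46 TPM (lowest, median and highest) at 2 months and 1.44, 2.00 and 2.40 TPM at 22 months, a 2.20-fold difference of the means (log2 fold change 0.66 ± 0.12 SE, adjusted p = 0.00185). In WT mice they were 0.50, 1.07 and 1.75 TPM at 2 months and 1.43, 1.765 and 2.35 TPM at 22 months (0.36 ± 0.12 SE, adjusted p = 0.105). The difference between the genotypes in this change did not pass the interaction test (0.30 ± 0.17 SE, adjusted p = 0.757). In WT mice Pcdhb6 was called higher under 3 of 11 alternatives and in 4 of the 29 fits without a mouse.

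**Figure D3:**
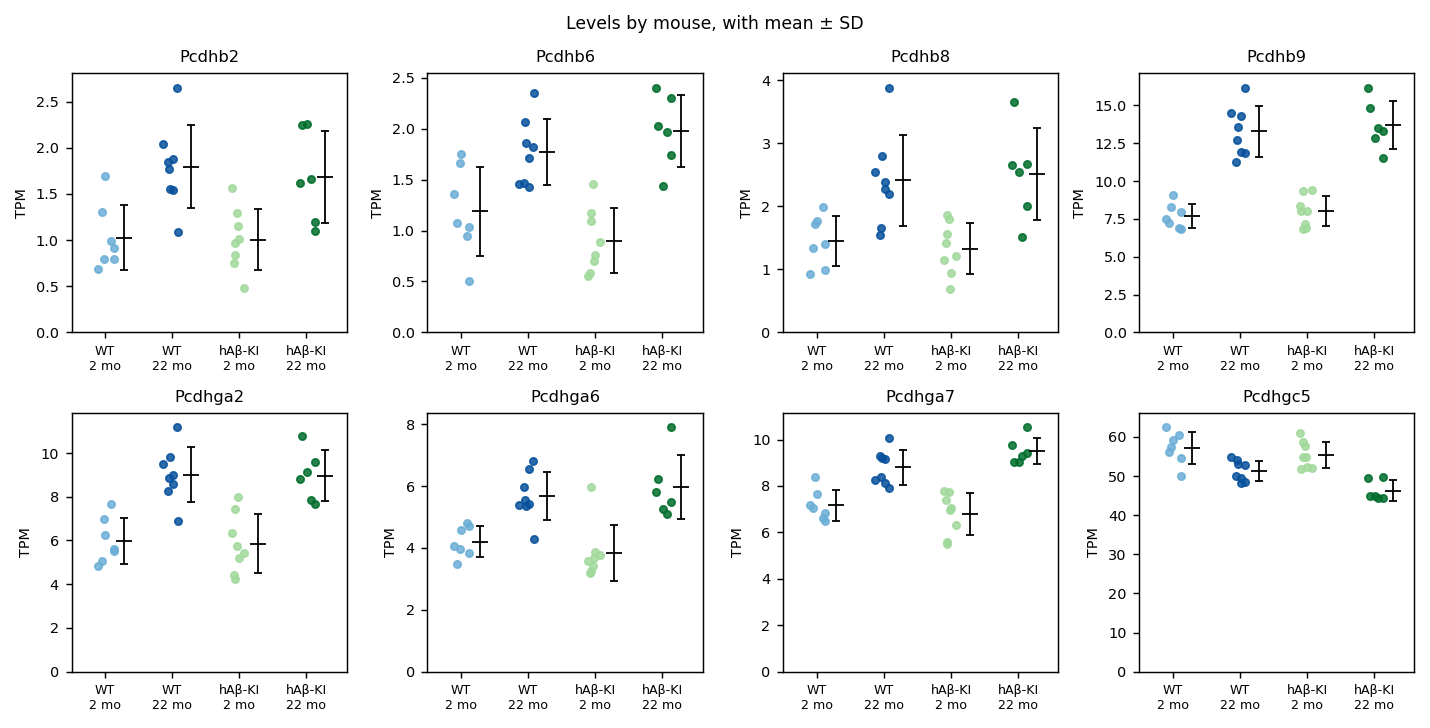
Level in TPM of 8 members in each mouse (points), with the mean and SD of each group (black bars), for WT mice in blue and hAβ-KI mice in green. All axes start at 0. Pcdhb9 separates young from old mice of both genotypes, the other beta and the 3 Pcdhga genes are higher at 22 months, and Pcdhgc5 is lower.

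Over the whole beta cluster, 5 of 21 tested genes were called with age in WT mice and 4 in hAβ-KI mice, all higher at 22 months. Of all genes, 5% were called in either direction and 1.93% higher in WT mice. In hAβ-KI mice these shares were 9.18% and 3.86%. Genes with a higher mean of log2 values at 22 months numbered 14 in each genotype. Over all genes tested, 40.8% were higher in WT mice and 48.8% in hAβ-KI mice. The beta genes had a median log2 fold change of 0.16 (WT) and 0.13 (hAβ-KI). Pcdhb7, the third of the cluster in level, had -0.05 ± 0.09 SE in WT and -0.01 ± 0.09 SE in hAβ-KI mice.

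The other 2 calls among beta genes were in WT mice. Pcdhb14 had 1.05, 1.23 and 1.51 TPM (lowest, median and highest) at 2 months and 1.49, 1.59 and 2.32 TPM at 22 months in these mice (log2 fold change 0.26 ± 0.07 SE, adjusted p = 0.0430). This call was lost with only the groups compared and with the immature neuron score. In hAβ-KI mice its log2 fold change was 0.16 ± 0.07 SE (adjusted p = 0.228). Pcdhb16 went from a median of 0.95 TPM to 1.365 TPM in WT mice (0.28 ± 0.09 SE, adjusted p = 0.0970), a call that was lost when any of 21 of the 29 mice was left out and under 6 of 11 alternatives, with an adjusted p of up to 0.490. These included the fit with mice sharing a name number as correlated. Its log2 fold change in hAβ-KI mice was 0.04 ± 0.10 SE.

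In the gamma cluster, 3 genes rose with age in both genotypes. These were Pcdhga2, Pcdhga6 and Pcdhga7, and their WT calls were lost with the immature neuron score as a covariate. Pcdhga2 had 4.81, 5.59 and 7.65 TPM (lowest, median and highest) in young WT and 6.90, 8.92 and 11.2 TPM in old WT mice. In hAβ-KI mice the values were 4.22, 5.595 and 8.00 TPM at 2 months and 7.67, 8.96 and 10.8 TPM at 22 months. Only the edges of the ranges overlapped. The mean rose 1.51-fold in WT (log2 fold change 0.53 ± 0.11 SE, adjusted p = 0.00882) and 1.53-fold in hAβ-KI mice (0.56 ± 0.11 SE, adjusted p = 0.00397). Of the whole sequence of Pcdhga2 45.4% was shared with other genes, and of its first exon 1.15%. These shares were 44.8% and 0.778% for Pcdhga6, and 49.8% and 19.2% for Pcdhga7.

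Pcdhga6 and Pcdhga7, which lie next to each other, were both called higher at 22 months in each genotype. The genes on either side of this pair were called in neither genotype. Pcdhga6 had 3.49, 4.05 and 4.79 TPM (lowest, median and highest) in young WT and 4.30, 5.49 and 6.81 TPM in old WT mice. In hAβ-KI mice it had 3.20, 3.635 and 5.98 TPM at 2 months and 5.10, 5.645 and 7.90 TPM at 22 months, and 1 young mouse of this genotype overlapped the old mice. The log2 fold change was 0.36 ± 0.10 SE in WT (adjusted p = 0.0488) and 0.53 ± 0.10 SE in hAβ-KI mice (adjusted p = 0.00239).

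Pcdhga7 had 6.47, 7.07 and 8.40 TPM (lowest, median and highest) in young WT and 7.91, 8.785 and 10.1 TPM in old WT mice. In hAβ-KI mice it had 5.50, 7.00 and 7.80 TPM at 2 months and 9.04, 9.36 and 10.5 TPM at 22 months. The ages did not overlap in hAβ-KI mice, as was the case for 3 members (Pcdhb9, Pcdhga7 and Pcdhgc5) and for 1.64% of all genes. The log2 fold change was 0.26 ± 0.07 SE in WT (adjusted p = 0.0378) and 0.44 ± 0.07 SE in hAβ-KI mice (adjusted p = 0.000475).

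The gene that fell in both genotypes was Pcdhgc5. In WT mice its lowest, median and highest levels were 50.1, 57.5 and 62.5 TPM at 2 months and 48.3, 51.4 and 54.8 TPM at 22 months. In hAβ-KI mice they were 51.7, 54.9 and 60.9 TPM at 2 months and 44.3, 44.9 and 49.7 TPM at 22 months, so that every old hAβ-KI mouse was below every young one. The mean at 22 months was 0.897 of that at 2 months in WT (log2 fold change -0.15 ± 0.05 SE, adjusted p = 0.0779) and 0.835 of it in hAβ-KI mice (-0.25 ± 0.05 SE, adjusted p = 0.00216). The WT call was lost under 7 of 11 alternatives, among them both other scalings and sex as a covariate, and the hAβ-KI call under none.

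Its neighbour Pcdhgc4 was called in neither genotype. The mean was 55.8 ± 7.79 TPM (SD, n = 7) in young WT and 63.9 ± 11.8 TPM (SD, n = 8) in old WT mice, and 54.3 ± 10.6 TPM (SD, n = 8) and 59.9 ± 22.4 TPM (SD, n = 6) in young and old hAβ-KI mice. The log2 fold change was 0.18 ± 0.15 SE in WT (adjusted p = 0.587) and 0.10 ± 0.15 SE in hAβ-KI mice (adjusted p = 0.782). Accordingly, the ratio of Pcdhgc5 to Pcdhgc4 was 1.04 ± 0.125 (SD, n = 7) in young WT and 0.832 ± 0.183 (SD, n = 8) in old WT mice, and 1.05 ± 0.206 (SD, n = 8) and 0.842 ± 0.235 (SD, n = 6) in hAβ-KI mice. It exceeded 1 in 5 of 7 young and 1 of 8 old WT mice, and in 4 of 8 young and 1 of 6 old hAβ-KI mice. Pcdhgc3 had log2 fold changes of -0.01 ± 0.07 SE in WT and -0.11 ± 0.07 SE in hAβ-KI mice, neither past the threshold.

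The other 2 calls downward were each made in a single genotype. Pcdhga3, next to Pcdhga2, had 7.09, 7.89 and 9.38 TPM (lowest, median and highest) in young WT and 4.46, 5.615 and 8.45 TPM in old WT mice (log2 fold change -0.37 ± 0.12 SE, adjusted p = 0.0848). This call was lost under 6 of 11 alternatives and without any of 10 mice, and in hAβ-KI mice the value was -0.18 ± 0.12 SE (adjusted p = 0.434). Pcdhgb2 had 2.75, 3.52 and 4.84 TPM in young and 2.17, 2.525 and 2.85 TPM in old hAβ-KI mice (-0.40 ± 0.10 SE, adjusted p = 0.0156), with -0.17 ± 0.10 SE (adjusted p = 0.391) in WT mice. The interaction test was passed by neither, with adjusted p = 0.854 for Pcdhga3 and 0.759 for Pcdhgb2.

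No alpha gene was called with age by limma in either genotype, against 5% of all genes in WT and 9.18% in hAβ-KI mice. Of the 13 tested, 10 had a lower mean of log2 values at 22 months in WT and 9 in hAβ-KI mice, with medians of -0.08 and -0.11, where 59.2% and 51.2% of all genes were lower. An unadjusted p under 0.05 was reached by 2 alpha genes in WT and by 1 in hAβ-KI mice. Over all 15554 genes tested, 2527 reached it in WT and 3095 in hAβ-KI mice. The smallest adjusted p was that of the C-type gene Pcdhac1 in hAβ-KI mice, with a mean of 1.55 ± 0.206 TPM (SD, n = 8) at 2 months and 1.14 ± 0.266 TPM (SD, n = 6) at 22 months (log2 fold change -0.26 ± 0.09 SE, adjusted p = 0.101). Pcdhac1 was called lower under 6 of 11 alternatives, with adjusted p from 0.0262 to 0.219 over the 11, and in 7 of the 29 fits without a mouse. Pcdha2, with an adjusted p of 0.257 in hAβ-KI mice, was called there under 1 alternative. Pcdhac2, the most abundant alpha gene, had -0.12 ± 0.19 SE in WT and -0.04 ± 0.20 SE in hAβ-KI mice. Pcdha12 had -0.09 ± 0.11 SE and -0.21 ± 0.11 SE, and Pcdha4 had -0.06 ± 0.14 SE and 0.09 ± 0.15 SE.

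Sums over a cluster remove the division of reads among its own genes but not that with genes outside the members, and they are given as a description without a test. Between 31.2% and 99.1% of the 43-base stretches of a gamma gene also occurred in genes that are no members, among them Gm38182 (1.83 TPM over all mice) and Pcdhgb8, which was not analysed here, so the gamma sum depends on this division. The share was at most 43.3% for an alpha gene and 0% for Pcdhb9, and Pcdhb12 had the highest of the beta genes with 63.0%. The beta sum was 45.4 ± 3.81 TPM (SD, n = 7) in young WT and 55.4 ± 4.11 TPM (SD, n = 8) in old WT mice, and 44.4 ± 3.79 TPM (SD, n = 8) and 55.3 ± 3.42 TPM (SD, n = 6) in young and old hAβ-KI mice. It was 1.22-fold higher at 22 months in WT and 1.25-fold higher in hAβ-KI mice, and only the edges of the ranges met. Pcdhb9 alone accounted for 55.7% of this rise in WT and 52.1% in hAβ-KI mice. Without it, the other 21 beta genes summed to 37.7 ± 3.07 TPM in young and 42.2 ± 2.53 TPM in old WT mice, and to 36.4 ± 3.33 TPM and 41.6 ± 2.10 TPM in hAβ-KI mice.

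The share of Pcdhb9 in the beta sum went from 16.9% ± 0.709 (SD, n = 7) to 23.9% ± 1.36 (SD, n = 8) in WT and from 18.1% ± 1.93 (SD, n = 8) to 24.7% ± 1.67 (SD, n = 6) in hAβ-KI mice. The alpha sum was 31.2 ± 2.06 and 29.2 ± 1.95 TPM in young and old WT mice, and 31.4 ± 1.81 and 29.2 ± 1.87 TPM in hAβ-KI mice, with overlapping ranges. The gamma sum was 229 ± 13.4 and 235 ± 14.6 TPM in WT mice, and 225 ± 15.9 and 225 ± 19.9 TPM in hAβ-KI mice. These ranges overlapped as well.

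**Figure D4:**
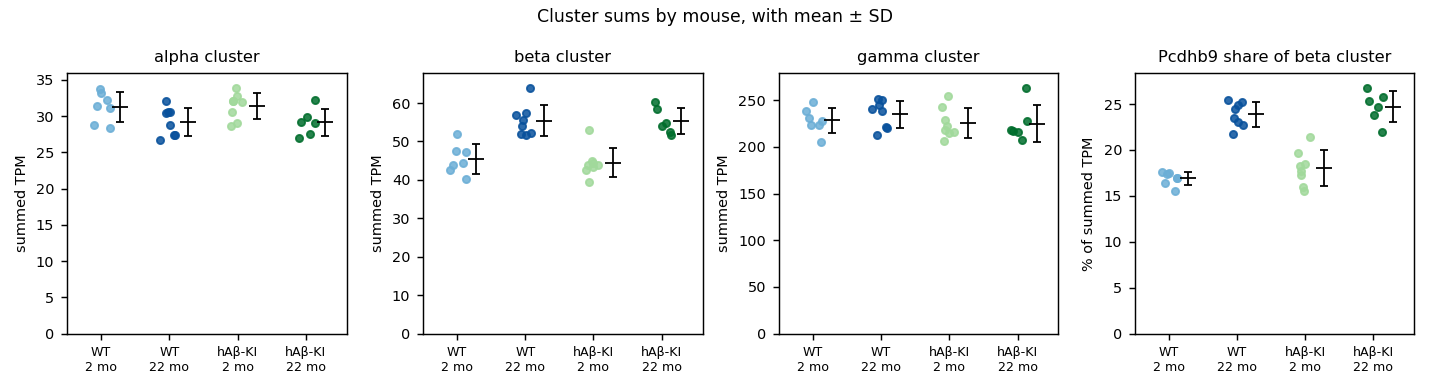
Summed TPM of the alpha, beta and gamma genes and the share of Pcdhb9 in the beta sum (percent) in each mouse (points), with the mean and SD of each group (black bars), for WT mice in blue and hAβ-KI mice in green. Axes start at 0. The beta sum and the Pcdhb9 share are higher at 22 months in both genotypes, whereas the alpha and gamma sums overlap between ages.

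The comparison of genotypes asks whether the humanized Aβ sequence is accompanied by a change of these genes at either age. These comparisons use the same mice as the comparisons of age. At 2 months, no member was called by limma, against 0.0386% of all genes. An unadjusted p under 0.05 was reached by 2 of 55 members and by 1041 of the 15554 genes tested. The 2 members were Pcdhb17 (chosen for that p) and Pcdhga3. Their adjusted p was 0.707 and 0.721. Log2 fold changes, as hAβ-KI minus WT, ran from -0.31 to 0.19 with a median of -0.00, beside -0.03 over all genes, and the median standard error was 0.11. The most negative was Pcdha11, with 1.98 ± 0.914 TPM in WT mice (SD, n = 7) and 1.35 ± 0.388 TPM in hAβ-KI mice (SD, n = 8) (log2 fold change -0.31 ± 0.18 SE, adjusted p = 0.827). Of the genes called with age in both genotypes, Pcdhb9 had a log2 fold change of 0.05 ± 0.08 SE between young hAβ-KI and WT mice, and Pcdhgc5 of -0.04 ± 0.05 SE.

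At 22 months, again no member was called by limma, against 0.495% of all genes. An unadjusted p under 0.05 was reached by 5 of 55 members and by 1584 of the 15554 genes tested. Log2 fold changes ran from -0.27 to 0.23 with a median of -0.01, equal to that of all genes. Pcdhgc5 had the smallest p, with a mean of 51.3 ± 2.59 TPM in WT mice (SD, n = 8) and 46.3 ± 2.61 TPM in hAβ-KI mice (SD, n = 6) (log2 fold change -0.15 ± 0.05 SE, adjusted p = 0.246), and the ranges overlapped. The neuronal marker Rbfox3, which encodes NeuN, was called lower in the same comparison with 146 ± 10.3 and 127 ± 7.27 TPM (-0.20 ± 0.05 SE, adjusted p = 0.0678), and its part in the value of Pcdhgc5 was not tested. It was 1 of 8 neuronal markers called, and the summed level of the list was 3099.7 to 3593.4 TPM in old WT and 3169.2 to 3331.2 TPM in old hAβ-KI mice.

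The other members with an unadjusted p under 0.05 at 22 months were beta genes. Pcdhb22 had 1.585 ± 0.445 TPM in WT mice (SD, n = 8) and 1.15 ± 0.357 TPM in hAβ-KI mice (SD, n = 6) (log2 fold change -0.27 ± 0.12 SE, adjusted p = 0.416), and its value at 2 months was -0.21 ± 0.11 SE (adjusted p = 0.793). Pcdhb16 had -0.25 ± 0.10 SE (adjusted p = 0.332) and Pcdhb14 -0.15 ± 0.07 SE (adjusted p = 0.485). Pcdhb11 was on the other side, with 1.24 ± 0.150 TPM in WT and 1.63 ± 0.244 TPM in hAβ-KI mice (0.23 ± 0.09 SE, adjusted p = 0.340). Pcdhb9 had 0.04 ± 0.08 SE.

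**Figure D5:**
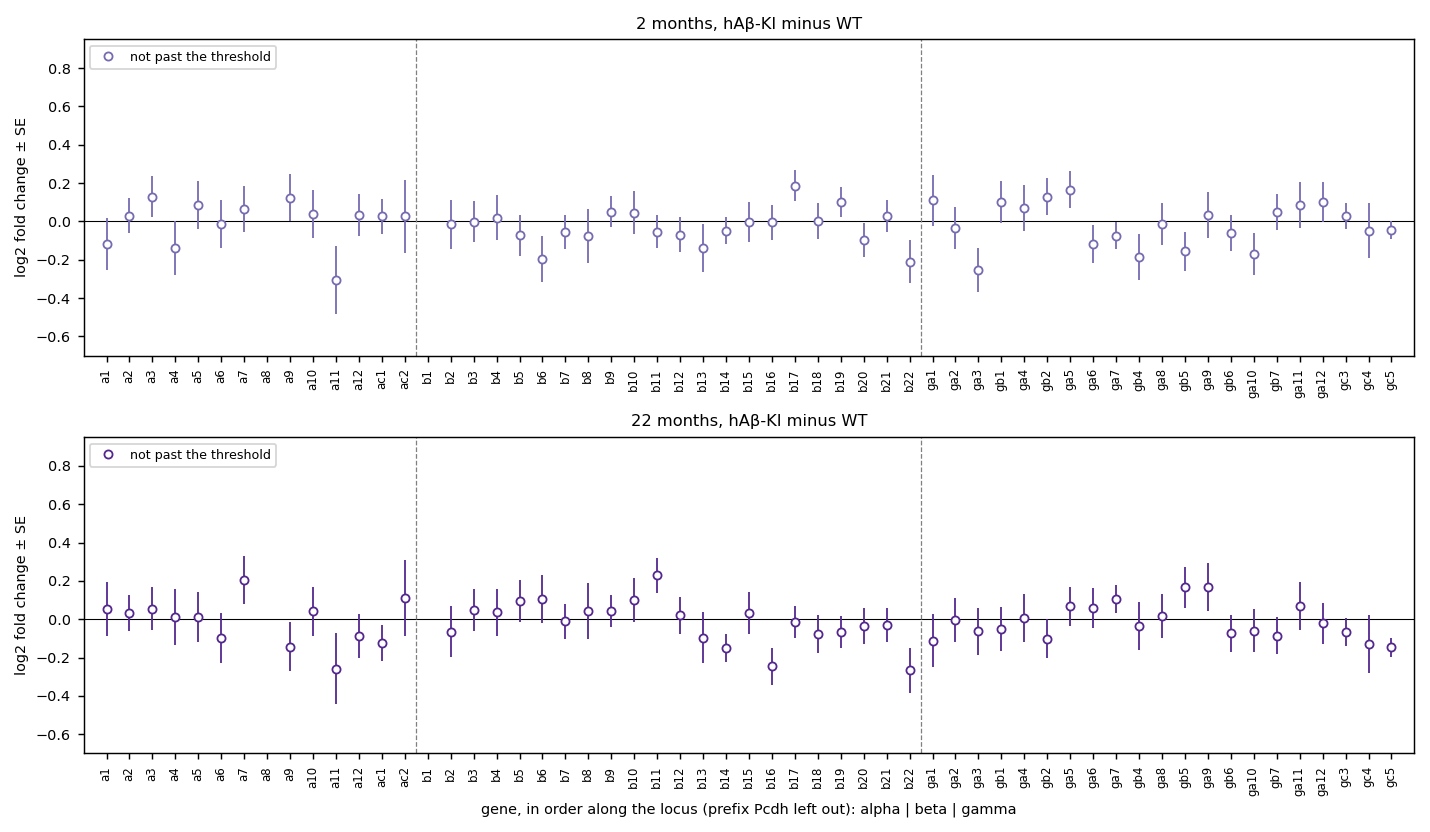
Log2 fold change of TPM + 1 between hAβ-KI and WT mice with its standard error for each tested member, in order along the locus, at 2 months (top) and 22 months (bottom). No point passed the limma threshold at either age. The points scatter around 0, between -0.31 and 0.23.

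The interaction test, which asks whether the change with age differed between genotypes, called no member by limma, against 0.00643% of all genes. An unadjusted p under 0.05 was reached by 2 of 55 members and by 1067 of the 15554 genes tested. Pcdhb11 had an interaction of 0.28 ± 0.12 SE on the log2 scale and Pcdhgb5 of 0.32 ± 0.15 SE, both with an adjusted p of 0.712. In WT mice Pcdhgb5 had 2.86 ± 0.680 TPM at 2 months (SD, n = 7) and 2.18 ± 0.310 TPM at 22 months (SD, n = 8). In hAβ-KI mice it had 2.42 ± 0.235 TPM at 2 months (SD, n = 8) and 2.61 ± 0.648 TPM at 22 months (SD, n = 6). The standard errors of the interaction, with a median of 0.16, leave room for differences of the size of several of the age changes. The 12 members called with age in either genotype all had the same direction in both, but they were chosen by the age contrasts themselves. Of all 55 tested members, 45 had the same direction in both genotypes, and the share over all genes was not computed.

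Genes related to the clustered protocadherins by family or function were looked at in 3 further lists. Of 11 tested protocadherins outside the clusters, none was called with age in WT mice by limma and 0 had an unadjusted p under 0.05. Of all 15554 genes tested, 5% were called in WT mice and 2527 had such a p. In hAβ-KI mice 5 had an unadjusted p under 0.05, as had 3095 of all 15554 genes tested, and 1 was called, against 9.18% of all genes. This was Pcdh20, with 34.5 ± 4.44 TPM (SD, n = 8) at 2 months and 25.5 ± 5.78 TPM (SD, n = 6) at 22 months (log2 fold change -0.45 ± 0.12 SE, adjusted p = 0.0230). Of 18 tested genes for CTCF, cohesin and chromatin repressors, none was called in WT by limma, against 5% of all genes, and 2 had an unadjusted p under 0.05. In hAβ-KI mice 3 had such a p and 1 was called, against 9.18% of all genes. This was Rad21, a cohesin subunit, with 7.84 ± 0.804 and 9.85 ± 1.86 TPM at 2 and 22 months (0.28 ± 0.08 SE, adjusted p = 0.0478). Ctcf itself had 0.02 ± 0.09 SE in each genotype.

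Of 22 binding and signalling partners, 2 were called with age in WT and 5 in hAβ-KI mice, all lower at 22 months, where 3.07% and 5.32% of all genes were called lower. Fyn, a Src family kinase, was called in both, with 28.4 ± 4.92 and 18.6 ± 2.34 TPM at 2 and 22 months in WT (log2 fold change -0.57 ± 0.10 SE, adjusted p = 0.00116) and 26.8 ± 3.43 and 18.3 ± 2.86 TPM in hAβ-KI mice (-0.53 ± 0.10 SE, adjusted p = 0.00247). Marcks, an actin-binding protein kinase C substrate, was the other call in WT mice (-0.42 ± 0.12 SE, adjusted p = 0.0624). In hAβ-KI mice the calls also included Ptk2b, a kinase bound by the constant domains of the alpha and gamma proteins (-0.28 ± 0.08 SE, adjusted p = 0.0499), the protein kinase C gene Prkca (-0.35 ± 0.13 SE, adjusted p = 0.0995), and Abi1 of the WAVE actin complex (-0.29 ± 0.07 SE, adjusted p = 0.00687). None of the 51 tested genes of the 3 lists was called by limma between genotypes or in the interaction, and 4 at 2 months, 10 at 22 months and 4 in the interaction had an unadjusted p under 0.05. Over all 15554 genes tested, 1041, 1584 and 1067 had such a p.

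Markers of other cell types moved with age beside these genes. Of all genes tested, 1.93% were called higher and 3.07% lower at 22 months in WT mice, and 3.86% and 5.32% in hAβ-KI mice. An unadjusted p under 0.05 was reached by 2527 of all 15554 genes in WT and by 3095 in hAβ-KI mice. Of 7 microglial markers, 6 were called higher at 22 months in each genotype, and their sum was 275 to 342 TPM in young and 335 to 465 TPM in old WT mice, and 272 to 318 TPM and 365 to 477 TPM in hAβ-KI mice. Of 7 astrocyte markers, 2 (S100b and Gfap) were called higher in each genotype, with sums of 747 to 857 and 821 to 1107 TPM in WT mice and 660 to 779 and 843 to 1057 TPM in hAβ-KI mice. Of 4 markers of oligodendrocyte precursors, 2 (Gpr17 and Neu4) were called lower in each genotype and 1 (Cspg4) higher in WT mice, with sums of 20.7 to 27.6 and 16.2 to 19.5 TPM in WT mice and 20.7 to 28.5 and 15.4 to 20.1 TPM in hAβ-KI mice. Of 7 tested markers of immature neurons, 3 were called lower in WT mice and none by limma in hAβ-KI mice (1 with an unadjusted p under 0.05), with sums of 135 to 163 and 120 to 135 TPM in WT mice and 124 to 150 and 112 to 164 TPM in hAβ-KI mice. Neuronal markers summed to 3253.4 to 3582.6 TPM in young and 3099.7 to 3593.4 TPM in old WT mice, and to 3155.6 to 3568.9 and 3169.2 to 3331.2 TPM in hAβ-KI mice. Of 8 neuronal markers none was called with age in WT mice by limma (1 with an unadjusted p under 0.05) and Rbfox3 was called lower in hAβ-KI mice, with 145 ± 7.71 TPM (SD, n = 8) at 2 months and 127 ± 7.27 TPM (SD, n = 6) at 22 months (log2 fold change -0.19 ± 0.05 SE, adjusted p = 0.0190). Of 6 oligodendrocyte markers 2 were called lower and of 6 endothelial markers 1 higher, both in WT mice, and none of 8 choroid plexus and 6 meningeal markers was called by limma with age, with at most 1 at an unadjusted p under 0.05 in a list and genotype. No marker of these lists was at 0 in all mice of a group. The part of these shifts in the changes of Pcdhb9, the other risen genes and Pcdhgc5 was not tested.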

How the data were processed

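Hippocampal RNA of 29 mice was amplified with Smart-seq2, tagged with Nextera and sequenced as paired 43-base reads, 1 library per mouse. According to their methods, the authors used STAR 2.5.1b with GRCm38 for alignment and RSEM 1.2.22 with Gencode vM8 for quantification, and deposited the results as TPM. Gene classes other than protein-coding and long non-coding are left out, so that the sum per mouse was 717535 to 816940 TPM. The methods give only an approximate number of reads per sample. The depth of each library is unknown, and the precision of a value is the spread between mice.

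Genes with at least 1 TPM in at least 2 mice (15554) were fitted as log2(TPM + 1) with limma 3.58.1 in R 4.3.3 (lmFit, eBayes with trend), in a model of the 4 groups with 5 contrasts and p-values adjusted over all genes. The script was tested on simulated data. Python 3.11.15 with pandas 2.3.3 and numpy 2.4.6 did the rest. Groups came from the labels. Members and gene lists were chosen with earlier results of these data known. Genes were named if called in a contrast, among the 3 highest of a cluster, C-type, or among the 3 largest changes of a contrast, and called genes of the related lists were named too, except 1 that is not reported here. All 57 gene IDs had the same version in GENCODE M21, which gave positions, exons and 43-base stretches.

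The alternatives were a pseudocount of 0.1, no filter, a mean of at least 1 TPM, quantile normalization, rescaling to nuclear protein-coding genes, only the groups compared, sex, choroid plexus score or immature neuron score as a covariate, mice sharing a name number as correlated, no trend, and each mouse left out in turn. For the cluster sums they were both scalings, only members that passed the filter, an adjustment for sex, and each mouse left out. The labels name no batch. The numbers that end the sample titles form a separate block in each group, so groups cannot be compared within such a block.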

Additional observations from a re-analysis of the deposited data

Results flagged for a closer look

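Within each group, the highest and the lowest mouse were compared with the others by Dixon's criterion, for 24 named members and the 3 cluster sums, which gave 108 groups of values. Chance alone flags about 1 in 20 such groups, and 6 were flagged, from 3 mice, each with a high value. In young hAβ-KI mice, replicate 7 had 6.64 TPM of Pcdhb12 where the others had 3.87 to 4.75 TPM. The same mouse had 5.98 TPM of Pcdhga6, with 3.20 to 3.86 TPM in the others, and a beta sum of 52.85 TPM, with 39.5 to 45.0 TPM in the others. In old hAβ-KI mice, replicate 2 had 104.66 TPM of Pcdhgc4, where the others had 43.6 to 56.9 TPM, and a gamma sum of 263.06 TPM, where the others had 207 to 228 TPM. This mouse also had the lowest summed oligodendrocyte markers of all mice, 2290.9 TPM. In old WT mice, replicate 4 had a beta sum of 63.91 TPM, with 51.7 to 57.4 TPM in the others. Without replicate 2 of the old hAβ-KI mice, 12 members were called with age in hAβ-KI mice in place of 9.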

How the results depend on the processing

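No called member changed direction under any alternative or with any mouse left out. The number of members called with age ranged from 7 to 11 in WT and 8 to 12 in hAβ-KI mice when each mouse was left out, and the 3 other contrasts stayed at 0. With the immature neuron score as a covariate, 1 member (Pcdhb9) was called with age in WT mice in place of 10, and 46 of all genes in place of 777. The log2 fold changes of these 10 kept their direction, from -0.49 (Pcdhga3) to 0.70 (Pcdhb9) in place of -0.37 to 0.71, and their standard errors were larger. The cause was not tested. The other alternatives gave 7 to 11 calls in WT and 8 to 11 in hAβ-KI mice. The sum of the alpha cluster, at -0.11 on the log2 scale with age in hAβ-KI mice, was -0.20 after quantile normalization, and the cause was not tested. The other 47 values of the cluster sums under these alternatives moved by less than 1 SD, as did all 174 with a mouse left out.

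In WT mice, the call of Pcdhgc5 was lost without young replicate 1, 3, 6 or 7 or old replicate 2, 5, 7 or 8 (adjusted p up to 0.149), that of Pcdhga3 without young replicate 1, 2, 4, 6 or 7 or old replicate 1, 3, 6, 7 or 8 (up to 0.173), and that of Pcdhb8 without young replicate 3, 4 or 5 or old replicate 1, 3 or 4 (up to 0.138). Pcdhb16 was called only without young WT replicate 1 or 2, old WT replicate 1 or 7, young hAβ-KI replicate 3, 5 or 8 or old hAβ-KI replicate 2 (otherwise up to 0.204). In hAβ-KI mice, the call of Pcdhb2 was lost without young replicate 6 or old replicate 3, 4 or 5 (up to 0.164). Among all genes, calls with age in WT mice split into 300 higher and 477 lower, but into 377 and 224 after quantile normalization and 408 and 304 after rescaling. No paired analysis was possible because the replicate numbers of different groups name different mice. The depth of each library is unknown, which limits what can be said of genes near 1 TPM.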
